A study of Mus musculus with 6 samples.

Results

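The BCL2 family sets whether a mitochondrion keeps its outer membrane intact, and 10 of its genes were followed here through confined migration of mouse embryonic fibroblasts. The 10 genes, Bcl2, Bcl2l1, Mcl1, Bax, Bak1, Bid, Bad, Bcl2l11, Bbc3 and Pmaip1, were chosen by symbol from the 55335 genes of the count table, and all 10 held enough reads to be tested. The study seeded MEF cells, a fibroblast line whose genotype is labelled WT, on a transwell membrane with 3 μm pores and collected the cells that had reached the lower side after 15 h (Confine). Parental cells, also WT MEFs, served as control (Ctrl). The Confine cells were both squeezed by the pores and selected by having crossed them, and these 2 aspects cannot be told apart in this design. No transwell arm with wider pores was sequenced, so effects of the transwell culture itself cannot be told apart from them either.

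Each group was labelled with 3 replicates, but the columns of Confine replicates 1 and 2 held the same count in every one of the 55335 genes. They were counted as 1 library, which left 3 Ctrl and 2 Confine libraries. The labels do not say whether replicates came from separate cultures, so the p-values measure only the spread between these libraries. Total counts ran from 22287210 to 27853805 in Ctrl and were 32537550 and 27290138 in Confine. A floor of 3 counts corresponded to 0.101 to 0.128 CPM (counts per 1000000 counts of the TMM-scaled library total), and this floor covers counting error only. Of 10 fibroblast markers, Col1a1, Col3a1, Vim, Pdgfra and Fn1 passed the test with higher values in Confine. Pdgfrb (log2 fold change −0.36) and S100a4 (−0.28) did not pass, with both Confine libraries below Ctrl. The summed level of the list, carried mostly by Vim, the collagens and Fn1, was 8745 to 9602 CPM in Ctrl against 15730 and 16510 CPM in Confine. Thy1 had at most 2 counts and Dcn at most 27 counts in any library. The 10 leukocyte markers summed to 15.8 to 17.8 CPM in Ctrl and to 35.6 and 41.3 CPM in Confine, through Cd68, Csf1r and Cd14 (Lyz2 was lower), while Adgre1, Tyrobp and Cd3e were at 0 in all libraries and Ptprc had no more than 2 counts. Endothelial and epithelial lists of 5 markers each summed to no more than 0.718 and 0.675 CPM in any library. The part of these marker shifts in the family's values was not tested. In such bulk samples, fewer cells of a type and less RNA per cell cannot be told apart.

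The family works by contact between its own members. Pro-survival proteins (Bcl2, Bcl2l1 and Mcl1 here) hold the effectors Bax and Bak1 in check, and effectors that escape form pores in the mitochondrial outer membrane through which cytochrome c leaves and caspases are switched on. BH3-only proteins (Bid, Bad, Bcl2l11 or BIM, Bbc3 or PUMA, and Pmaip1 or NOXA) relay damage, starvation or death receptor signals by occupying the pro-survival proteins or by engaging the effectors directly.

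Among the 10 genes, Bid alone passed the test between Confine and Ctrl, and it was lower in Confine. Bid mRNA fell from 124 ± 30.8 CPM in Ctrl (SD, n = 3) to 65.8 ± 27.5 CPM in Confine (SD, n = 2). The other 9 genes did not pass: 3 had positive and 6 had negative log2 fold changes, and none of the 9 had an unadjusted p under 0.05 in edgeR. No member passed with a higher value in Confine by edgeR, DESeq2 or limma-voom. Passing means an adjusted p under 0.05 in edgeR's quasi-likelihood test over 15881 genes. Of all tested genes 23.0% passed, 12.8% higher and 10.2% lower in Confine, so 1 of 10 members passing is no larger a share than the background. Adding the fold change cutoff used in the study (absolute log2 fold change above 1.5) left 8.00% of all genes (4.89% higher and 3.11% lower) and 0 members. The libraries of the groups did not overlap for 4 of 10 members, Mcl1 and Pmaip1 with Confine above and Bak1 and Bid with Confine below, against 49.5% of all tested genes (25.9% with Confine above and 23.6% with Confine below). The median log2 fold change of the members was −0.06, beside −0.0021 over all tested genes.

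**Figure D1:**
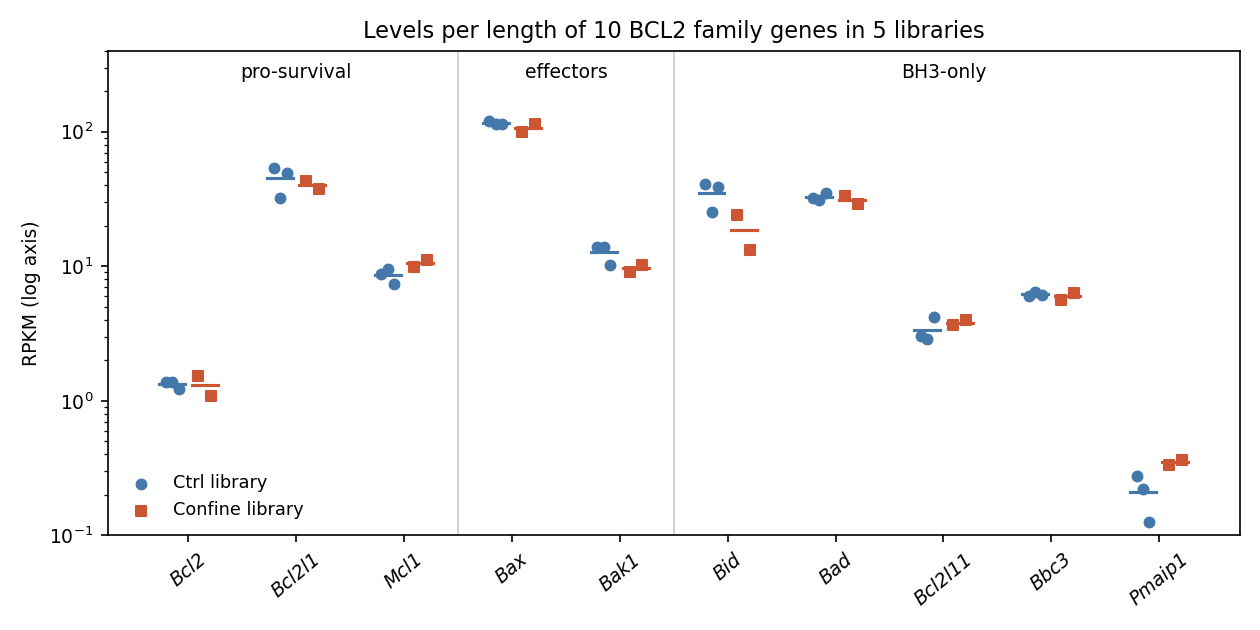
Each point is the level of 1 gene in 1 library, as RPKM (CPM divided by exonic length in kilobases, log axis), with Ctrl libraries as circles, Confine libraries as squares and a bar at each group mean. Bax stands highest and Pmaip1 lowest in both groups, and Bid is the gene whose Confine mean (18.5 RPKM) lies farthest below its Ctrl mean (35.0 RPKM) on this axis.

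Levels of different genes can be set side by side only per length, and on that scale the MEFs carried far more message for the effector Bax than for any other member. In Ctrl the RPKM levels ran Bax 116 ± 3.73, Bcl2l1 45.0 ± 11.3, Bid 35.0 ± 8.68, Bad 32.8 ± 2.05, Bak1 12.7 ± 2.08, Mcl1 8.56 ± 1.13, Bbc3 6.18 ± 0.197, Bcl2l11 3.35 ± 0.709, Bcl2 1.33 ± 0.0884 and Pmaip1 0.208 ± 0.0777 (SD, n = 3). The means of Bcl2l1, Bid and Bad lay within each other's spread. Library by library, Bcl2l1 stood above Bid in Ctrl (53.3 against 41.1, 32.1 against 25.1 and 49.6 against 38.7 RPKM). It was also above Bad, by a ratio of 1.65, 1.04 and 1.42. Bid stood above Bad in Ctrl replicates 1 and 3 and below it in Ctrl replicate 2, so the order of Bid and Bad is not resolved. Dividing by the longest transcript in place of all merged exons kept 44 of the 45 pairwise orders, the exception being Bid (51.4 RPKM) and Bad (54.7 RPKM). Among the pro-survival genes the order was Bcl2l1, then Mcl1, then Bcl2, so the RNA of the gene that names the family was the least abundant of the 3. Among the Confine means 2 neighbouring pairs changed places. Bid at 18.5 ± 7.75 RPKM stood below Bad at 31.2 ± 2.74 RPKM (SD, n = 2). Bak1 at 9.67 ± 0.747 RPKM stood below Mcl1 at 10.6 ± 0.893 RPKM (SD, n = 2), these means within each other's spread. Within each Confine library Bak1 was below Mcl1, at 9.14 against 9.92 RPKM in the shared library and 10.2 against 11.2 RPKM in replicate 3.

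Summed by role, effectors made up 46.6% to 54.1% of the members' total RPKM in Ctrl, and 47.3% and 54.9% in Confine. The pro-survival share was 18.2% to 22.6% in Ctrl and 21.8% and 23.6% in Confine. The BH3-only share was 27.7% to 31.6% in Ctrl and 29.1% and 23.3% in Confine. The groups overlapped for the effector and BH3-only shares and for the pro-survival share, so none of these balances separated Confine from Ctrl.

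Bid (ENSMUSG00000004446.12) lies on the minus strand at chr6:120891930-120916853 of GRCm38. Its product links death receptors to mitochondria: caspase-8 cuts it, and the truncated form moves to the outer membrane and engages Bax and Bak1. Because it was the member that passed, its upstream sequence is shown, taken from the RefSeq promoter table (GRCm38.p6, chr6:120916854-120917074, minus strand, written 5′ to 3′ and ending at the annotated gene start). Capitals mark GGGCGG, the GC box bound by Sp1-type factors.

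Bid: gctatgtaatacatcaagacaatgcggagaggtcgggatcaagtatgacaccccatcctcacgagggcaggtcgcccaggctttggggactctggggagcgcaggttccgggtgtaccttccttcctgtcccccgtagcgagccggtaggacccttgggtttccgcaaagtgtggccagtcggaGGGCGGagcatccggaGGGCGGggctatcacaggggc

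The stretch held 2 GC boxes on the printed strand, both near the gene start. GGGCGG occurred on either strand in 28.7% of 32851 promoter windows, each the first 221 bases of its promoter entry. It occurred in 9 of 15 windows of the 9 members that had an entry. Only the Bid window was set by its annotated gene start, so the other windows need not end at theirs. CCAAT (31.1% of windows) and ACGTG (14.5% of windows) were searched on both strands and did not occur in the Bid stretch. These counts describe the sequence only, and the RNA counts hold no measurement of this region.

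Bid had 4228, 2353 and 3232 counts in Ctrl replicates 1, 2 and 3, or 146, 88.9 and 137 CPM. The shared library of Confine replicates 1 and 2 had 2525 counts (85.3 CPM) and Confine replicate 3 had 1168 counts (46.4 CPM). Both Confine libraries thus lay below every Ctrl library, but Ctrl replicate 2 and the shared Confine library were almost level, and the gap between the 2 Confine libraries was wider than the gap between the groups. On the log2 scale Bid differed by −0.91 (SE 0.25, 95% interval −1.45 to −0.38, 0.531-fold), with an adjusted p of 0.0135 in edgeR. This call rested on Confine replicate 3: without it the log2 fold change was −0.54 and the adjusted p 0.29. Without the shared library it was −1.42, with an adjusted p of 0.00643. The 3 fits that each left out 1 Ctrl replicate gave −1.11 to −0.79, and all of them passed.

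The 3′ end of Bid shares 628 exonic bases with Bcl2l13 on the opposite strand, a convergent gene that encodes another BCL2 family protein. The kit keeps strand, but whether counting used it is not given in the sources used here, so reads from the shared bases could be assigned to either gene. Bid averaged 2701 counts and Bcl2l13 762 counts over the 5 libraries. The log2 fold change of Bcl2l13 was 0.17 (SE 0.18, adjusted p = 0.565 in edgeR), opposite in sign to that of Bid.

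**Figure D2:**
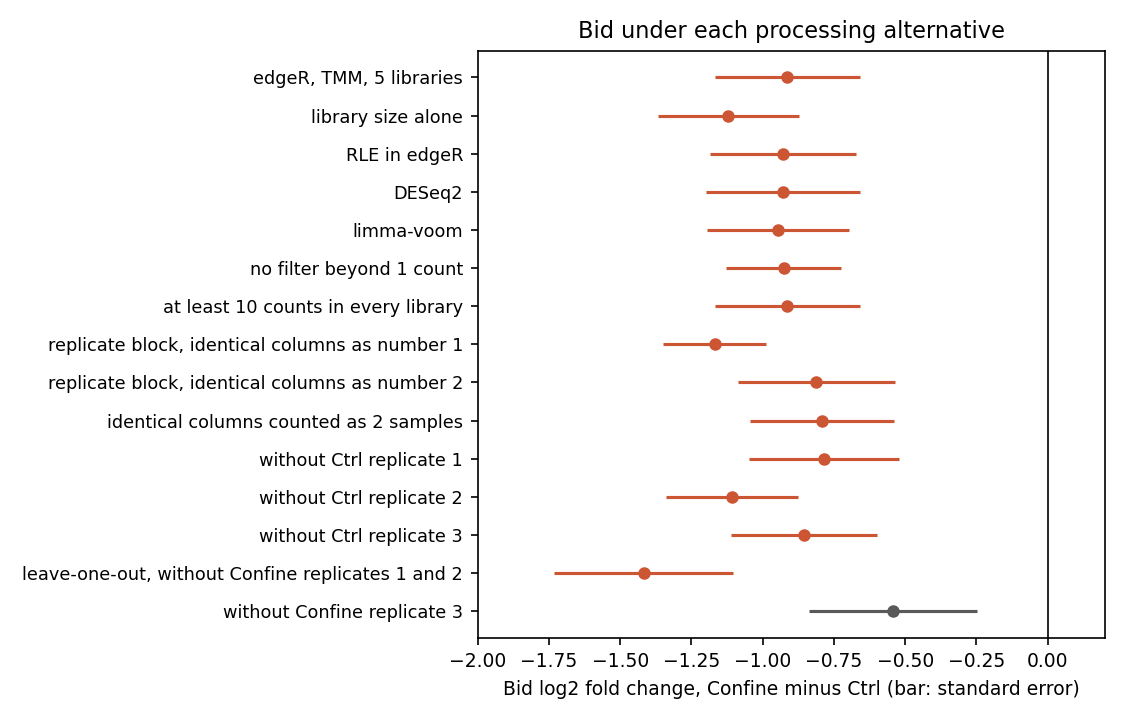
The log2 fold change of Bid (Confine minus Ctrl, horizontal axis) is drawn for the reported fit and for each alternative, with bars of 1 standard error and grey for a fit that did not pass at an adjusted p under 0.05. All 15 fits place Bid below 0, from −1.42 to −0.54, and the fit without Confine replicate 3 is the 1 that did not pass.

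Of the 3 pro-survival genes, none passed the test. Bcl2l1 (ENSMUSG00000007659.18, chr2:152780668-152831728, minus strand), which encodes BCL-XL, had 245, 147 and 227 CPM in Ctrl and 196 and 171 CPM in Confine. Both Confine libraries fell inside the Ctrl range, and Ctrl replicate 2 was the lowest of the 5, as it was the lowest Ctrl library for Bid. For Bcl2l1 the log2 fold change was −0.17 (SE 0.21, 95% interval −0.61 to 0.28, adjusted p = 0.626 in edgeR).

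Mcl1 (ENSMUSG00000038612.16, chr3:95658788-95663176, plus strand) encodes a short-lived pro-survival protein that restrains Bak1 in particular. It had 29.8, 32.8 and 25.1 CPM in Ctrl and 33.9 and 38.2 CPM in Confine, both Confine libraries above all Ctrl libraries by a narrow gap. In edgeR the log2 fold change was 0.30 (SE 0.19, 95% interval −0.09 to 0.70, adjusted p = 0.277 in edgeR), and it stayed positive in every fit run, from 0.09 to 0.39.

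Bcl2 (ENSMUSG00000057329.7, chr1:106538178-106714274, minus strand) had 12.6, 12.7 and 11.3 CPM in Ctrl and 14.0 and 9.97 CPM in Confine. The Confine libraries lay on either side of all Ctrl libraries, 414 counts in the shared library and 251 counts in replicate 3. The fitted difference was −0.03 on the log2 scale (SE 0.22, 95% interval −0.48 to 0.43, adjusted p = 0.95 in edgeR), and its sign depended on which Confine library was kept.

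The effectors did not pass either. Bax (ENSMUSG00000003873.11, chr7:45461697-45466898, minus strand), which moves from cytosol to mitochondria when activated, had 190, 181 and 179 CPM in Ctrl and 157 and 181 CPM in Confine. Confine replicate 3 was level with Ctrl, and the shared library was the lowest of the 5. Bax had a log2 fold change of −0.12 (SE 0.18, 95% interval −0.49 to 0.25, adjusted p = 0.685 in edgeR).

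Bak1 (ENSMUSG00000057789.14, chr17:27019810-27029009, minus strand), the effector that resides in the outer membrane, had 33.7, 33.1 and 24.8 CPM in Ctrl and 22 and 24.5 CPM in Confine. Confine was below Ctrl throughout, but Ctrl replicate 3 was almost level with Confine replicate 3. Bak1 had a log2 fold change of −0.39 (SE 0.20, 95% interval −0.81 to 0.02, unadjusted p = 0.0624 and adjusted p = 0.17 in edgeR). Bak1 passed only where library totals were used without TMM (−0.60, adjusted p = 0.033) or the identical columns were entered as 2 samples (−0.43, adjusted p = 0.0473). Library totals alone moved the median of all genes to −0.21, so the Bak1 value relative to that median was close to the one with TMM.

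**Figure D3:**
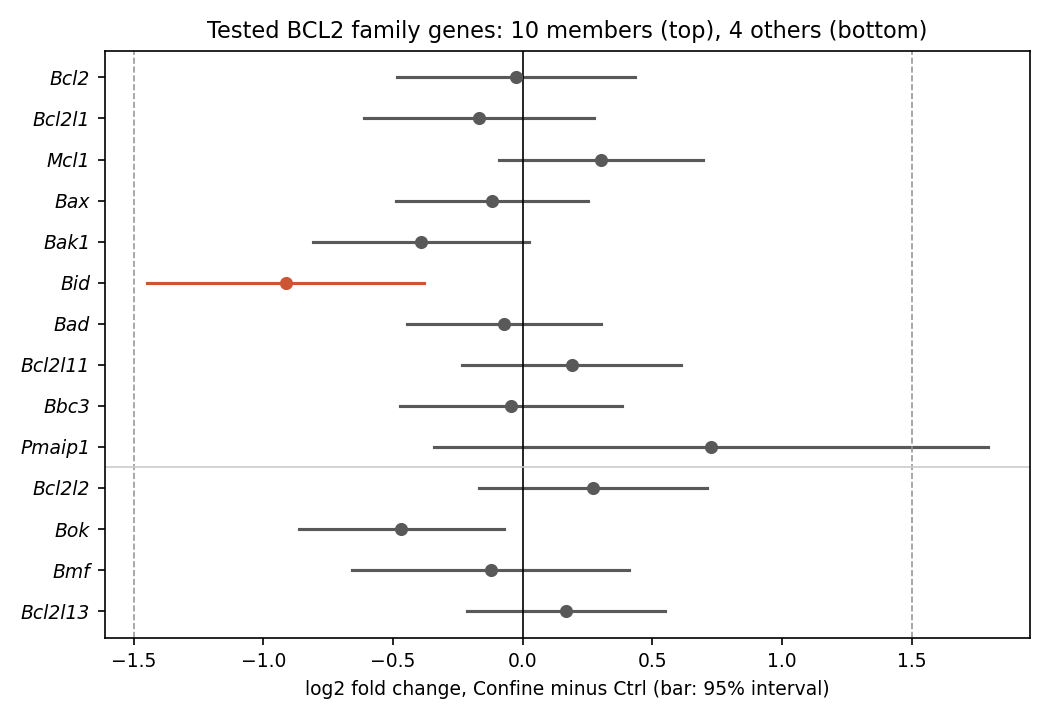
Points are edgeR log2 fold changes (Confine minus Ctrl, horizontal axis) of the 10 members above the grey line and of the 4 other tested family genes below it. Bars are 95% intervals, dashed lines mark a log2 fold change of 1.5 in either direction, and Bid (−0.91) is the coloured gene that passed at an adjusted p under 0.05.

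Of the other 4 BH3-only genes none passed, and 3 were well measured. Bad (ENSMUSG00000024959.14, chr19:6941861-6951899, plus strand), whose protein is inactivated by growth factor signalling through phosphorylation, had 82.6, 79.3 and 89.6 CPM in Ctrl and 84.7 and 74.8 CPM in Confine. Its log2 fold change was −0.07 (SE 0.18, 95% interval −0.45 to 0.30, adjusted p = 0.821 in edgeR). Bad shares 524 exonic bases with Gpr137 on the opposite strand, whose log2 fold change was 0.11.

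Bbc3 (ENSMUSG00000002083.13, chr7:16308393-16318205, plus strand), a p53 target that binds all pro-survival members, had 12.8, 13.6 and 13.0 CPM in Ctrl and 12 and 13.5 CPM in Confine. All 5 libraries lay between 12 and 13.6 CPM, and the groups overlapped. Its log2 fold change was −0.05 (SE 0.20, 95% interval −0.47 to 0.38, adjusted p = 0.904 in edgeR).

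Bcl2l11 (ENSMUSG00000027381.16, chr2:128126038-128162547, plus strand), a FOXO target in many cell types, had 24.2, 23.0 and 33.4 CPM in Ctrl and 29.2 and 32.0 CPM in Confine. Ctrl replicate 3 was the highest of the 5 libraries, so the groups overlapped. The log2 fold change was 0.19 (SE 0.20, 95% interval −0.23 to 0.61, adjusted p = 0.557 in edgeR).

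Pmaip1 (ENSMUSG00000024521.8, chr18:66458533-66465565, plus strand) encodes a BH3-only protein that binds Mcl1. It was the least expressed member, with 22, 16 and 8 counts in Ctrl and 27 and 25 counts in Confine, or 0.760, 0.605 and 0.340 CPM against 0.912 and 0.993 CPM. Ctrl and Confine did not overlap, but these are few reads. The log2 fold change was 0.72 (SE 0.51, 95% interval −0.34 to 1.79, adjusted p = 0.341 in edgeR). Pmaip1 was the exception among the 9 members that did not pass: for the other 8 the 95% interval lay within 1 log2 unit of 0, whereas for Pmaip1 a rise of more than 1.5 log2 units lay inside the interval.

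Ratios between members within a library do not depend on scaling between libraries, and 8 ratios were computed per length, 6 of a pro-survival gene to an effector or BH3-only gene and 2 between pro-survival genes. Mcl1 to Bak1 was 0.624, 0.697 and 0.715 in Ctrl and 1.09 and 1.10 in Confine. This ratio was higher in both Confine libraries, with an exact two-sided permutation p of 0.1, the smallest that 3 against 2 libraries allow, and 0.8 after Benjamini-Hochberg adjustment over the 8 ratios. Mcl1 to Pmaip1 was 31.4, 43.3 and 59.0 in Ctrl and 29.7 and 30.8 in Confine, with Confine below Ctrl (exact permutation p = 0.2, adjusted 0.8), on the few Pmaip1 reads given above. Bcl2l1 to Bax was 0.442, 0.280 and 0.435 in Ctrl and 0.430 and 0.325 in Confine (exact permutation p = 0.9). The remaining 5 ratios also overlapped between groups.

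Another 12 family genes were listed beside the 10, and 4 of them were expressed enough to be tested. None of the 4 passed in edgeR, DESeq2 or limma-voom, where 23.0% of all tested genes passed in edgeR. Among the 4, only Bok had an unadjusted p under 0.05 in edgeR. Bok, a Bax-like protein found mainly at the endoplasmic reticulum, had 214, 164 and 172 CPM in Ctrl and 122 and 143 CPM in Confine, with no overlap. Bok had a log2 fold change of −0.47 (SE 0.19, 95% interval −0.86 to −0.07, adjusted p = 0.0848 in edgeR). Per length Bok reached 99.4 ± 14.5 RPKM in Ctrl (SD, n = 3), close under Bax and above all other members. The pro-survival Bcl2l2 (BCL-W) had 355, 456 and 315 counts in Ctrl and 490 and 453 counts in Confine, with a log2 fold change of 0.27 (adjusted p = 0.389 in edgeR). The BH3-only gene Bmf had 209, 345 and 250 counts in Ctrl and 247 and 266 counts in Confine, with a log2 fold change of −0.12 (adjusted p = 0.781 in edgeR).

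The other 8 were at or near 0. Bcl2a1a, Bcl2a1b, Bcl2a1d and Bcl2l10 had 0 counts in all 5 libraries, and the Bcl2a1 genes are near-identical copies whose reads could have been lost in counting. Bik had 2, 0 and 2 counts in Ctrl and 10 and 6 counts in Confine, and Bcl2l15 had 0, 0 and 1 against 4 and 9. Hrk had 1 count in all and Bcl2l14 at most 3 counts in a library. These values are too low to be read as differences.

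Downstream of the mitochondrial membrane, genes of the cell death machinery differed in both directions. Of 14 apoptosome, caspase and intermembrane space genes, 2 rose, 5 fell and 7 did not pass, with a median log2 fold change of 0.003, where 23.0% of all tested genes passed. Casp6, an executioner caspase known for cutting nuclear lamins, had 27.1, 26.3 and 32.4 CPM in Ctrl and 75.5 and 80.5 CPM in Confine. This was a log2 fold change of 1.45 (SE 0.18, 2.73-fold, adjusted p = 9.82e-06 in edgeR). The 2 groups of libraries were far apart.

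Among the genes that fell were some for proteins held between the mitochondrial membranes, namely the protease Htra2 (log2 fold change −0.92, adjusted p = 0.00179), the oxidoreductase Aifm1 (−0.65, adjusted p = 0.0311) and cytochrome c, Cycs (−0.57, adjusted p = 0.0318, all in edgeR). Htra2 overlaps Aup1 and Loxl3, whose log2 fold changes were −0.02 and −0.33. Cycs has a copy, Gm10053, identical over 946 bases, and its counts are uncertain to that extent. The mitochondrial nuclease Endog rose from 31, 12 and 12 counts in Ctrl to 64 and 77 counts in Confine (log2 fold change 1.92, SE 0.43, adjusted p = 0.00296 in edgeR). Endog overlaps the more abundant Spout1 on the opposite strand, whose log2 fold change was −0.17. Htra2 did not pass without the shared Confine library. Aifm1 and Cycs did not pass without either Confine library or without Ctrl replicate 1, nor Aifm1 without Ctrl replicate 3, and Endog did not pass without Confine replicate 3. Casp6 passed in all 14 alternatives.

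Among 5 tested inhibitor of apoptosis (IAP) genes, 1 rose, 1 fell and 3 did not pass (Xiap, Birc2 and Birc6, log2 fold changes −0.02, −0.02 and 0.04). Over all tested genes 12.8% passed as higher and 10.2% as lower. Birc5 (survivin), which is also a mitotic protein made mostly in dividing cells, had 147, 163 and 128 CPM in Ctrl and 36.0 and 52.8 CPM in Confine. Its log2 fold change was −1.72 (SE 0.21, 0.303-fold, adjusted p = 8.65e-06 in edgeR), and it passed in all 14 alternatives. Birc3 rose from 1.59, 1.40 and 2.17 CPM to 4.12 and 2.82 CPM (log2 fold change 1.02, adjusted p = 0.0349 in edgeR), a call kept in 8 of the 14 alternatives and lost with library totals alone, in both fits with a replicate block and without Ctrl replicate 1, Ctrl replicate 2 or the shared Confine library.

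On the death receptor side, upstream of Bid, 1 of 7 tested genes rose and none fell, although the median log2 fold change was −0.38. The shares over all tested genes were 12.8% higher and 10.2% lower. Cflar (c-FLIP), which blocks caspase-8 at the receptor, had 40.2, 51.2 and 45.0 CPM in Ctrl and 99.3 and 94.6 CPM in Confine (log2 fold change 1.09, SE 0.18, adjusted p = 0.000189 in edgeR). It passed in all 14 alternatives. No gene of the list fell by DESeq2 or limma-voom, and at an unadjusted p under 0.05 in edgeR only Fas had a lower value (log2 fold change −0.43, adjusted p = 0.136). The count of 0 did not hold throughout: 3 genes passed as lower with library totals alone and without Ctrl replicate 2, 4 in the replicate block with the shared library as number 1, and 1 each without the shared Confine library and with the identical columns as 2 samples. Casp8, the enzyme that cuts Bid, had a log2 fold change of 0.33 (SE 0.19, adjusted p = 0.245 in edgeR).

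Regulators known to act on BH3-only genes were set beside those genes. Of 7 tested, 2 rose, 1 fell and 4 did not pass, beside 12.8% higher and 10.2% lower over all tested genes. Foxo3, a factor known to act on Bcl2l11 and Bbc3, had 64.1, 116 and 67.1 CPM in Ctrl and 306 and 262 CPM in Confine (log2 fold change 1.78, SE 0.23, 3.45-fold, adjusted p = 1.23e-05 in edgeR). Jun, the AP-1 factor downstream of JNK, had 15.3, 21.2 and 12 CPM in Ctrl and 48.4 and 66.4 CPM in Confine (log2 fold change 1.83, SE 0.23, adjusted p = 8.81e-06 in edgeR). Both passed in all 14 alternatives, and both groups of values were clear of each other, whereas Bcl2l11 (0.19) and Bbc3 (−0.05) did not pass. Jun overlaps the antisense gene Junos, whose log2 fold change was 2.88.

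Atf4, a stress response factor known to act on Pmaip1 and Bbc3, was lower in Confine (log2 fold change −0.56, adjusted p = 0.0453 in edgeR), a call lost in 5 of the 14 alternatives, among them the fits without either Confine library and without Ctrl replicate 1 or 3. Trp53 did not pass (−0.46, SE 0.19, adjusted p = 0.0838), nor did Foxo1 (0.35), Ddit3 (0.34) or E2f1 (0.21, edgeR). Of 2 entries named Ddit3, the one with more counts was used. Ddit3 overlaps the more abundant Mars on the opposite strand, whose log2 fold change was −0.98.

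The p53 targets outside the family were mixed. Of 15 tested, 3 rose, 2 fell and 10 did not pass, with a median log2 fold change of −0.005. For all tested genes the shares were 12.8% higher and 10.2% lower. Cdkn1a, the cell cycle inhibitor p21, had 315, 337 and 224 CPM in Ctrl and 1920 and 2010 CPM in Confine. Its log2 fold change was 2.75 (SE 0.20, 6.74-fold, adjusted p = 1.26e-08 in edgeR), it passed in all 14 alternatives, and no other gene of these pathway lists changed as much. Plk2 (0.64, adjusted p = 0.0116) and Mdm2 (0.52, adjusted p = 0.0474) also rose, and Ccng1 (−0.71, adjusted p = 0.0148) and Sesn1 (−0.87, adjusted p = 0.0163, all edgeR) fell. None of these 4 passed without the shared Confine library. Plk2, Mdm2 and Sesn1 did not pass without Confine replicate 3 either. Plk2 was also lost with library totals alone (adjusted p = 0.0772 in edgeR), and Mdm2 passed in only 6 of the 14 alternatives, failing among others with RLE scaling (adjusted p = 0.0551 in edgeR). Without Ctrl replicate 2 the list had 8 passing genes, 5 higher and 3 lower. Inside the family, the p53 targets Bbc3, Pmaip1 and Bax had log2 fold changes of −0.05, 0.72 and −0.12 and did not pass. The other members, Bid among them, were not sorted into p53 targets and others.

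Of 8 genes for proteins that stabilise, degrade or anchor family members, none passed in edgeR with TMM, DESeq2 or limma-voom, where 23.0% of all tested genes passed in edgeR. With library totals alone 1 of the 8 passed as lower. The 8 included Huwe1 and Fbxw7, which mark Mcl1 for degradation, Usp9x, which spares it, Vdac2, which binds Bak1, and Mtch2, which receives truncated Bid. Their log2 fold changes ran from −0.38 (Mtch2) to 0.22 (Fbxw7). At an unadjusted p under 0.05, 1 gene had a lower value in Confine, Mtch2 (398, 400 and 399 CPM in Ctrl, 340 and 271 CPM in Confine, adjusted p = 0.141 in edgeR).

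**Figure D4:**
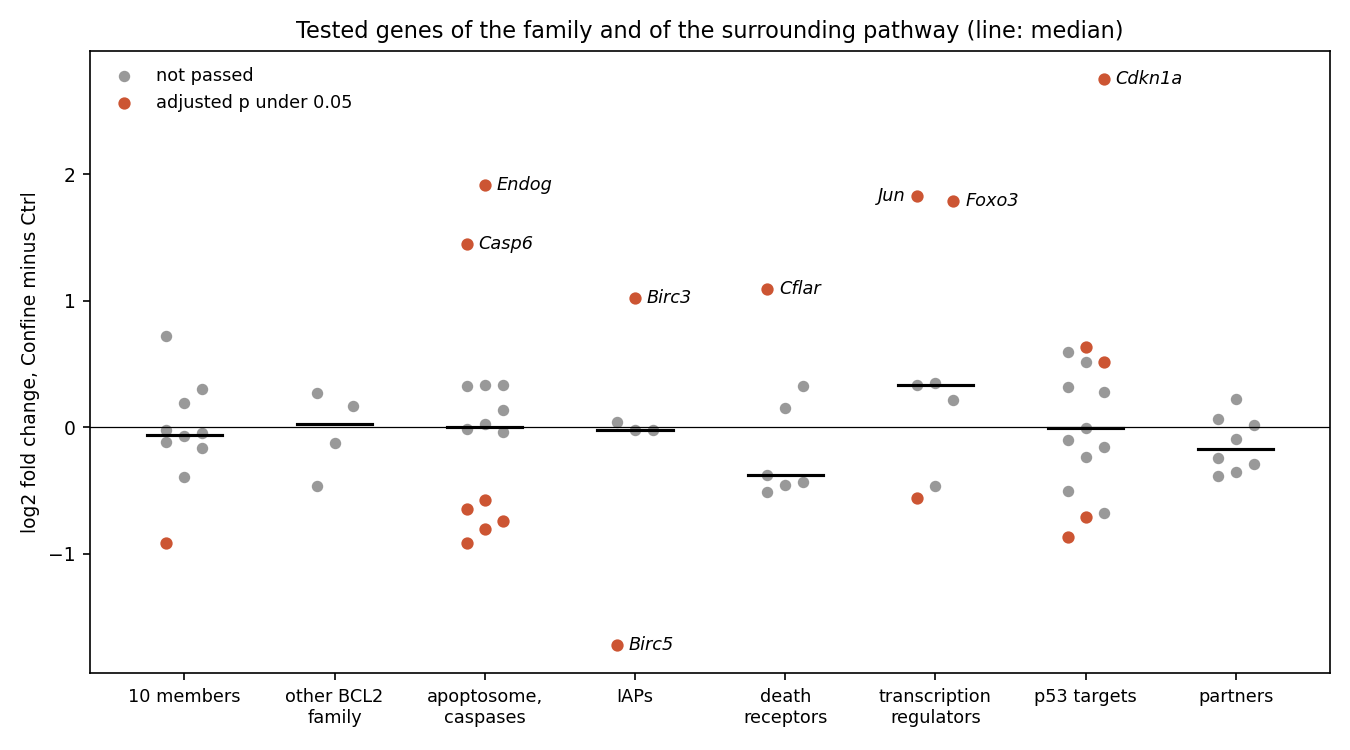
Each point is the edgeR log2 fold change (Confine minus Ctrl, vertical axis) of 1 tested gene, in columns for the 10 members, the other BCL2 family genes and 6 surrounding pathway lists, with a line at each median. Coloured points passed at an adjusted p under 0.05, and the members span −0.91 to 0.72 while the surrounding lists reach from Birc5 (−1.72) to Cdkn1a (2.75).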

How the data were processed

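RNA was poly(A)-selected and made into strand-keeping (dUTP) libraries. Per the labels, the authors deposited raw read counts per gene. The submitters' processing notes name mm10, Trim Galore 0.6.10, HISAT2 2.1.0, SAMtools 1.5 and featureCounts, and the annotation and strand setting of the counting are not given in the sources used here. Of 55335 gene IDs, 54587 matched GENCODE M21 (GRCm38) with version and 55154 without.

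The deposited counts were tested with edgeR 4.0.16 (R 4.3.3): filterByExpr left 15881 genes, followed by TMM, glmQLFit and glmQLFTest with group as the only term and Benjamini-Hochberg adjustment over all tested genes. The study used DESeq2, which was run as an alternative. Intervals are 95% and use 3 residual degrees of freedom plus a median of 14.8 prior ones. CPM used TMM-scaled totals (factors 0.910 to 1.08), and RPKM was computed here from merged exons. Columns with identical values entered once. The scripts were tested on simulated data.

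Alternatives were library totals alone, RLE scaling, DESeq2 1.42.0, limma-voom (limma 3.58.1), 2 other count filters, a replicate block, identical columns as 2 samples and leaving out each library. Sequence copies were sought with blastn 2.17.0. The members and lists were chosen with earlier results of these data known. Named genes were all members, tested family genes and, per list, up to 4 passing genes in each direction with the largest change, plus any gene of a count of 5 or fewer. Some genes of these lists are counted but not reported here by name.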

Additional observations from a re-analysis of the deposited data

How the results depend on the processing

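Over 15 fits, 1 member passed except with library totals alone and with the identical columns as 2 samples (2 each, Bid and Bak1) and without Confine replicate 3 (0), so leaving out a library gave 0 to 1. Across all tested genes 3654 passed, against 2256 without the shared Confine library and 2054 without Confine replicate 3 (range 2054 to 4426 over the libraries left out). With library totals alone 4249 passed, 1444 higher and 2805 lower, against 2035 and 1619 with TMM. Past the fold change cutoff were 1271 genes (777 higher, 494 lower), 812 when 10 counts were required in every library, 1300 with library totals alone (622 higher, 678 lower) and 1078 to 1290 over the libraries left out. The other family genes held 4 tested genes, and the 6 surrounding lists held 14, 5, 7, 7, 15 and 8, in the order given above. Together 18 of these genes passed, all of them in the surrounding lists, beside 23.0% of all tested genes. Leaving out 1 Ctrl library gave 12 to 25, with Bok among the 25 without Ctrl replicate 2. Leaving out either Confine library, which leaves 1 in that group, gave fewer than any of these. Which of these changed counts came from fewer libraries and which from those libraries' values was not tested. Replicate numbers were not shown to pair the samples: with 2 pairs, deviations of same-numbered libraries correlated at 0.052 with the shared library as number 1 and −0.053 as number 2. The replicate block, with the shared library as number 1 and then 2, gave 4933 and 2528 genes in all and 1 and 1 members. In the other family genes and surrounding lists together it gave 28, Bok among them, and 10. For Bid it gave −1.17 (adjusted p = 7.55e-05) and −0.81 (adjusted p = 0.0246) in edgeR. Of 195 other values for single family genes, 178 kept direction and side of the threshold and 10 changed sign, each in a gene that did not pass. Bcl2 became 0.040 with the identical columns as 2 samples and ran from −0.290 to 0.195 over the libraries left out, the top value without Confine replicate 3. Bcl2l1 became 0.002 with the block and the shared library as number 2, and Bcl2l11 −0.019 and Bcl2l13 −0.040 with library totals alone. Bbc3 ran from −0.136 to 0.042 (without the shared library), Bad from −0.162 to 0.014 (without Confine replicate 3) and Bmf from −0.331 to 0.081 (without Ctrl replicate 2, and 0.040 without the shared library) over the libraries left out, and Bmf became 0.098 with the block and the shared library as number 1. Bok passed in 4 alternatives (log2 fold change −0.67 to −0.52). Of the 18 surrounding genes, 6 passed in every alternative and 12 did not in at least 1. Members per length kept 44 of 45 pairwise orders under the other length. Depth limits Pmaip1 most, at 8 to 27 counts.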
